A study of Oryza sativa Indica Group with 18 samples.

Results

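The difference between 2 indica rice cultivars, Dagad deshi and IR20, in their transcript response to 6 h of drought was measured. It was taken as the interaction, which is the change from control to 6 h of drought in IR20 minus the same change in Dagad deshi, on a log2 scale. A positive interaction means that the response of IR20 was higher than that of Dagad deshi, and a negative one that it was lower. The contrast used 12 of the 18 arrays, and 40048 of 57381 probe sets were bright enough to be tested.

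The study hybridised whole-seedling RNA from plants 7 days old, raised in hydroponics, to Affymetrix rice arrays. Drought consisted of laying the seedlings on filter paper for 3 h or 6 h in the light, and the controls of each cultivar stayed in growth medium for 6 h. Each of the 6 groups had 3 arrays, and the 4 groups compared here were the controls and the 6 h drought seedlings of each cultivar. The title speaks of tolerant and susceptible cultivars, the labels do not say which is which, and where nothing says how the replicates were grown, p-values measure only the spread between these arrays.

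A seedling lifted out of its medium loses water from roots and leaves at once. Abscisic acid then rises, its receptors block protein phosphatases 2C, and the released SnRK2 kinases switch on transcription factors, protective LEA proteins and dehydrins. Jasmonate, a fatty acid hormone, accumulates with wounding and drying and in rice also turns on diterpenoid phytoalexins, antimicrobial compounds made by enzymes whose genes lie in clusters. Growth and photosynthesis genes are usually lowered at the same time. In whole seedlings, fewer cells of a type and less RNA per cell cannot be told apart.

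Where both cultivars moved the same way, Dagad deshi usually moved further. At 6 h, 28186 probe sets (70.4%) differed from control in Dagad deshi, of which 24.7% of those tested rose and 45.6% fell, at an adjusted p under 0.05 by limma with Benjamini-Hochberg adjustment, which is the threshold for every call below. In IR20 18375 (45.9%) differed, with 20.4% risen and 25.5% fallen. The order of these totals was not stable: with array weights they were 14898 in Dagad deshi and 27117 in IR20, and with the 3'/5' index (below) as a term 15881 and 23514. The 2 responses differed for 17228 probe sets, 43.0% of those tested (20996, or 52.4%, at an unadjusted p under 0.05), with 11392 (28.4%) higher and 5836 (14.6%) lower in IR20. Many of these were small: 5497 were under 0.1 log2 units, and 7039 of the 11392 higher in IR20 had a mean log2 level under 5, near the floor of 4 that the scale allows. Centring each array on its median left 5195 higher and 7599 lower, so the direction of the small differences depended on the scaling. At least 1 log2 unit was reached by 3514 (8.77%), of which 1243 (3.10%) were higher and 2271 (5.67%) lower in IR20.

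Opposite responses were found for 593 probe sets, of which 250 rose in Dagad deshi and fell in IR20 and 343 did the reverse. Most of the 343 were small: their median interaction was 0.13, and 78 of them reached at least 1 log2 unit. For the 250 the median was -1.17, and 156 reached at least 1. A response in one cultivar only, meaning that the other cultivar's change was not called and was under 0.5 log2 units, was found for 8487 probe sets in Dagad deshi and 1436 in IR20. Of the former, 6943 were falls, and 6133 of those were in probe sets near the floor in IR20. Rises in Dagad deshi only numbered 1544, of which 620 had an interaction of at least 1. Of the responses in IR20 only, 438 of 709 rises and 263 of 727 falls were near the floor in Dagad deshi. Their interaction was at least 1 for 123 of the 709 and 147 of the 727. Both cultivars responded the same way but Dagad deshi more strongly for 5428 probe sets (2676 rises and 2752 falls), against 740 for IR20 (270 rises and 470 falls). Another 544 could not be placed. With array weights 1172 were found in Dagad deshi only and 1684 in IR20 only, and 2749 were stronger in Dagad deshi against 113 in IR20. With the index as a term 2202 were found in Dagad deshi only and 4096 in IR20 only, and 4593 against 483 were stronger. The order for one cultivar thus turned with both settings and that for stronger responses did not.

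**Figure D1:**
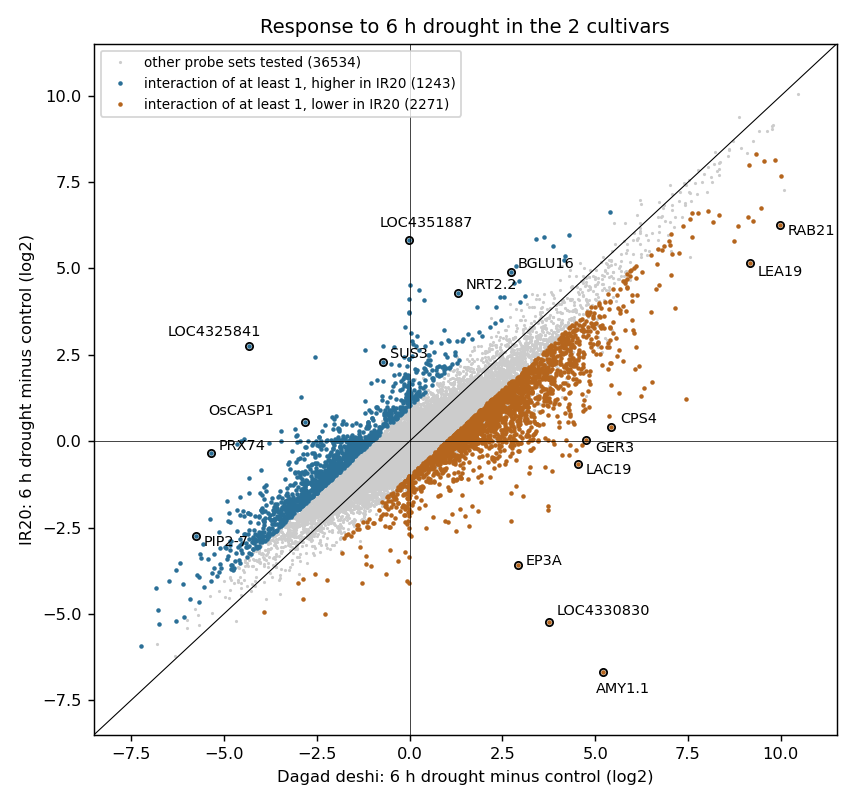
Each point is 1 of the 40048 probe sets, with the 6 h response of Dagad deshi on the horizontal axis and that of IR20 on the vertical axis, both in log2 units; the diagonal marks equal responses and colours mark called interactions of at least 1. Most coloured points lie between the diagonal and the horizontal axis, where both cultivars moved the same way and Dagad deshi moved further, with 2271 below the diagonal and 1243 above it.

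The control arrays stood apart in quality. The 3'/5' index, the mean log2 ratio of 3' to 5' control probe sets, which rises with RNA degradation or short labelling products, averaged 6.72 ± 1.87 (SD, n = 3) over the Dagad deshi controls and 5.11 ± 1.53 over those of IR20, against 2.01 ± 0.17 and 2.29 ± 0.78 at 6 h. Dagad deshi control array 1 had the highest index, 8.88. On it 2024 probe sets lay at least 1 log2 unit from the mean of the other 2 controls of that cultivar. The same count was 763 and 554 for those arrays. Median intensities were 7.45 to 8.20 in Dagad deshi controls and 7.13 to 7.45 in the other 9 arrays compared. The part of the index in the interaction was tested only by the alternatives given at the end.

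The largest opposite response was that of AMY1.1 (LOC4330832), an alpha-amylase that releases sugar from starch in the germinating grain. Its log2 level was 14.16, 4.42 and 4.55 in the Dagad deshi controls and 13.93, 14.04 and 10.81 at 6 h. In IR20 it was 12.99, 11.95 and 13.11 in the controls and 6.07, 6.07 and 5.83 at 6 h. The IR20 groups did not overlap and the level in IR20 fell by 6.69, while the first Dagad deshi control was as high as the drought arrays. The interaction was -11.91 (SE 2.61, adjusted p = 0.0036, limma), and -15.14 without that control.

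LOC4330830, which lies next to AMY1.1 on chromosome 2 and carries no gene name in the annotation used, followed the same arrays. It was at 11.28, 4.59 and 4.71 in Dagad deshi controls and 11.84, 11.76 and 8.29 at 6 h, against 9.76, 10.11 and 9.85 in IR20 controls and 4.74, 4.59 and 4.69 at 6 h. EP3A, a cysteine proteinase, had an interaction of -6.50 (SE 1.25, adjusted p = 0.00153), with 9.24, 4.49 and 4.96 in Dagad deshi controls and 10.03, 9.35 and 8.09 at 6 h. In IR20 its controls stood at 8.49, 8.12 and 7.68 and its drought arrays at 4.58, 4.48 and 4.52. For all 3 genes the high first Dagad deshi control made the Dagad deshi groups overlap, and the interaction was -11.21 for LOC4330830 and -8.0 for EP3A without it.

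AMY1.1 acts in the grain that feeds the seedling, so the whole list of grain genes was read beside it. Of 13 grain genes tested (alpha-amylases, glutelins and a prolamin), 4 had a called interaction, 2 in each direction. Among all 2381 named genes 45.7% were called, 20.7% positive and 24.9% negative, and every list count below stands against these shares. AMY1.1 is itself a member, with intensities of 18200, 5.44 and 7.36 in Dagad deshi controls and 15600, 16800 and 1780 at 6 h. Where that gene was high it made up most of the sum, so the sum is not separate from it. The summed intensity of the list was 286 to 18600 in Dagad deshi controls, 2570 to 17700 at 6 h, 4270 to 9190 in IR20 controls and 475 to 535 at 6 h. Most of the list was near the floor, with 8 or 9 of the 13 members, alpha-amylases included, under a log2 level of 5 in each group. How much grain remained on each seedling was not tested. AMY1.3, another alpha-amylase, behaved differently: it was at 4.48 to 4.54 in all 6 controls and rose to 9.15, 8.90 and 8.74 in Dagad deshi and 6.30, 6.37 and 6.37 in IR20 (interaction -2.6, SE 0.14, adjusted p = 2.34e-08).

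**Figure D2:**
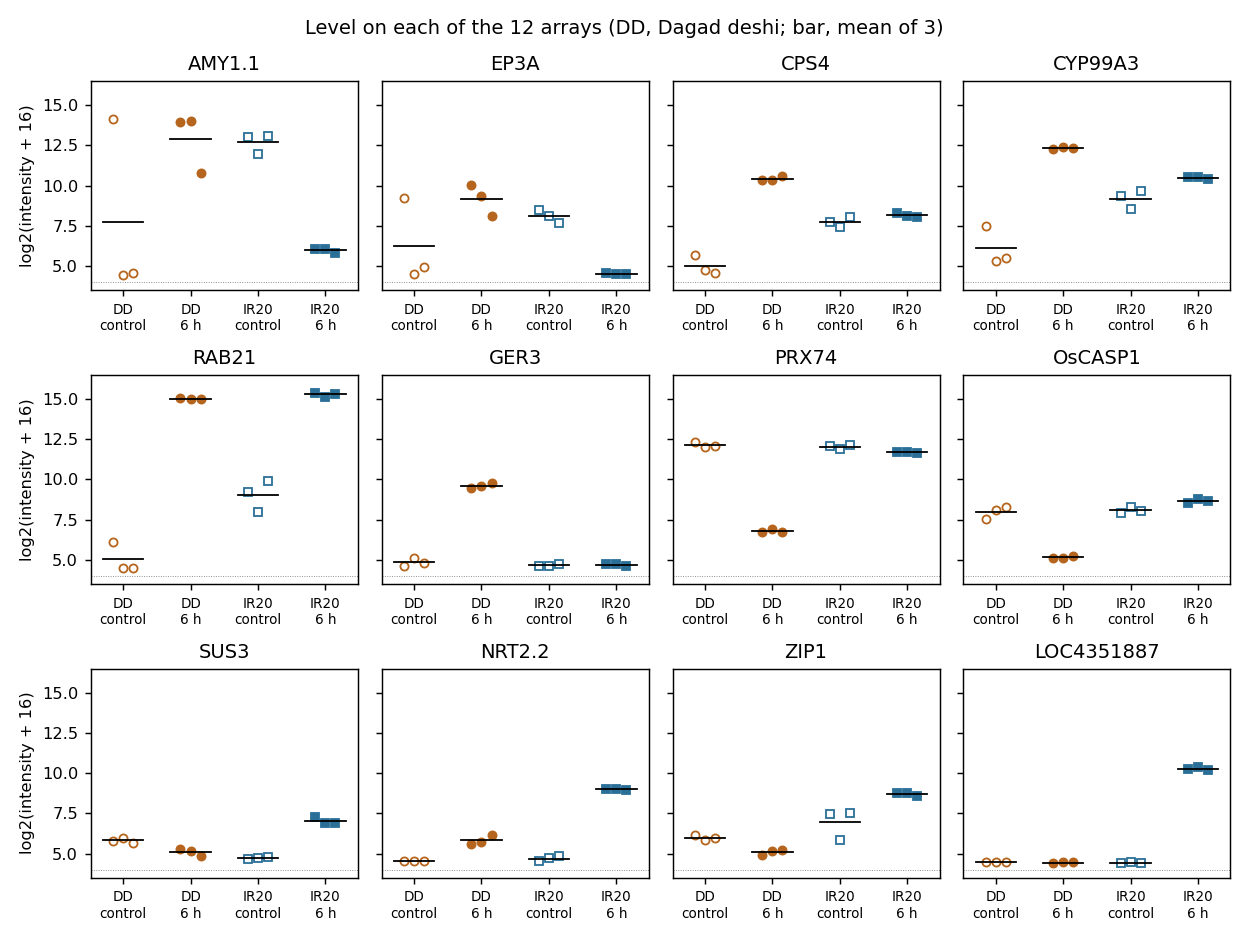
Each panel shows 1 gene, with the log2(intensity + 16) level on each of the 12 arrays as points (Dagad deshi circles, IR20 squares, open for control and filled for 6 h drought) and the mean of 3 arrays as a bar; the dotted line is the floor of 4. Replicates lie close together in most panels, and the first Dagad deshi control of AMY1.1, at 14.16, and of EP3A, at 9.24, sits far above the other controls of that cultivar.

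Most diterpenoid phytoalexin genes described here rose in Dagad deshi, and in IR20 some fell, some had no called change and CYP99A3 rose by less. CPS4, the syn-copalyl diphosphate synthase that opens the momilactone pathway, was at 5.71, 4.73 and 4.59 in Dagad deshi controls and at 10.37, 10.32 and 10.60 after drought. In IR20 it was at 7.72, 7.42 and 8.04 in controls and 8.31, 8.10 and 8.04 after drought. The IR20 groups overlapped, whereas every Dagad deshi drought array lay above every control, and the interaction was -4.99 (SE 0.34, adjusted p = 1.86e-07).

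CYP99A3, a cytochrome P450 of the same pathway, went from 7.47, 5.34 and 5.51 to 12.29, 12.37 and 12.33 in Dagad deshi, and from 9.37, 8.53 and 9.65 to 10.54, 10.53 and 10.42 in IR20. The rise was larger in Dagad deshi by 4.91 log2 units (SE 0.59, adjusted p = 3.64e-05), from controls that were lower by 3.08. KS4, the syn-pimaradiene synthase, rose by 3.21 in Dagad deshi, while it fell by 0.92 in IR20.

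Among the 5 measured genes of the 6 between CPS4 and CYP99A2 on chromosome 4, all 5 had a negative interaction, from -4.99 to -2.81. Besides CPS4, CYP99A3 and KS4 these were OsMAS, the momilactone A synthase (-2.81), and the P450 CYP99A2 (-4.71). IR20 controls were higher than Dagad deshi controls for all 5, and at 6 h Dagad deshi was higher for 4, against 17.2% and 11.6% of all probe sets tested. Called negative interactions made up 14.6% of all probe sets tested and 24.9% of named genes. The stretch was chosen after its values were seen, so its count is a description.

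A second stretch, from CYP76M5 to CPS2 on chromosome 2, holds phytocassane genes, and all 7 of its genes were measured and had a negative interaction, from -4.70 to -2.82. CYP71Z6, a P450, changed in opposite directions. It was at 5.84, 5.63 and 5.66 in Dagad deshi controls and 9.37, 9.76 and 9.51 at 6 h, against 7.31, 7.86 and 7.62 in IR20 controls and 6.69, 6.99 and 6.51 at 6 h. No group of either cultivar overlapped its control (interaction -4.70, SE 0.28, adjusted p = 7.02e-08). DTC1, also called KSL7, the cassadiene synthase, differed most between the controls: it was at 5.68, 4.65 and 4.64 in Dagad deshi and 9.01, 9.18 and 9.23 in IR20. After drought it was at 8.10, 7.84 and 8.21 in Dagad deshi and 7.55, 7.54 and 7.56 in IR20, so that the distance between the cultivars had closed from both sides.

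CPS2, the ent-copalyl diphosphate synthase of that stretch, rose by 1.85 in Dagad deshi, whereas IR20 fell by 1.03. CYP701A9, a P450 of the kaurene oxidase family, rose by 4.48 in Dagad deshi only (interaction -4.72, SE 0.26, adjusted p = 2.64e-08). Of the 5 tested genes of the diterpenoid list, 4 had a negative interaction. The median response was 1.85 in Dagad deshi and -0.07 in IR20, where the median over all probe sets was near 0 in both.

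**Figure D3:**
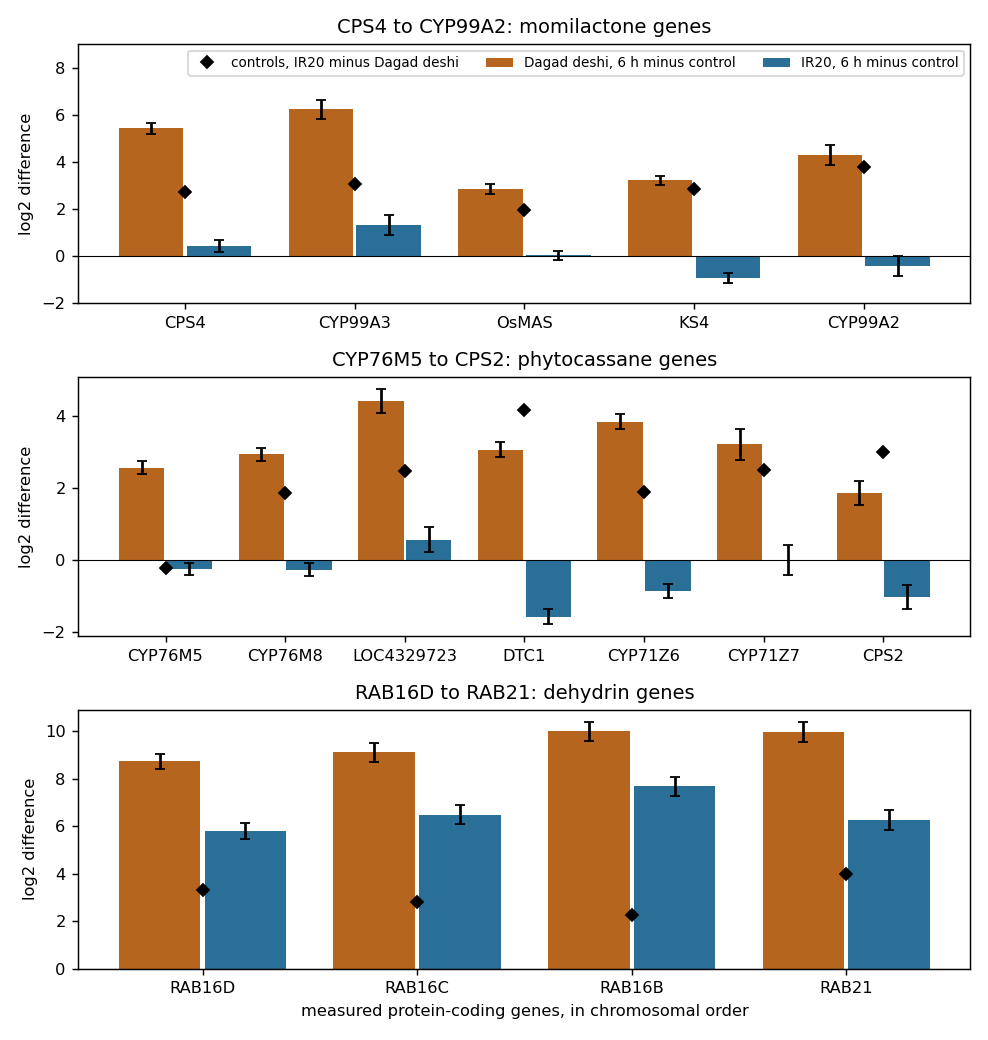
Bars give the 6 h response (log2, 6 h drought minus control, with the SE of the fit) in Dagad deshi and IR20 for the measured genes of 3 chromosome stretches, in chromosomal order, and diamonds give the difference between the controls (IR20 minus Dagad deshi). In both phytoalexin stretches Dagad deshi rose while IR20 moved from -1.59 to 1.31, and in the dehydrin stretch both cultivars rose, Dagad deshi by more.

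Other defence genes had the same form. PBZ1, a pathogenesis-related protein induced by probenazole, was at 11.46, 9.09 and 9.23 in Dagad deshi controls and 14.49, 14.45 and 14.12 at 6 h. In IR20 it was already at 13.56, 13.02 and 13.68 in the controls and was at 14.01, 13.85 and 13.89 at 6 h. The Dagad deshi groups were far apart and the IR20 response was not called (interaction -3.93, SE 0.62, adjusted p = 0.00033). On chromosome 12 LOC4352487 and LOC4352488, which lie in the same stretch of 6 genes and carry no gene name, had interactions of -6.22 and -3.22, while LOC4352490 in that stretch had 1.04.

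Chitinases, which cut the cell wall polymer of fungi, followed in part. Cht2 rose by 3.37 in Dagad deshi against 0.24 in IR20, and Cht6 by 2.80 against 0.29. Of 13 chitinase and defence genes tested, 5 had a negative and 2 a positive interaction. Chib3H-h, a class III chitinase, was one of the latter, with a rise of 1.39 in IR20 and a change of 0.03 in Dagad deshi. The germin-like protein gene GER3 was among the clearest responses in one cultivar. It was at 4.64, 5.12 and 4.80 in Dagad deshi controls and at 9.48, 9.59 and 9.77 at 6 h, and between 4.62 and 4.73 on all 6 IR20 arrays (interaction -4.72, SE 0.17, adjusted p = 2.88e-10). IR20 was near the floor throughout, and the difference between the controls, -0.20, was not called.

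LAC19, a laccase of the family that oxidises phenolics in the cell wall, rose in Dagad deshi from 5.66, 6.19 and 6.23 to 10.59, 10.40 and 10.72. In IR20 it fell from 8.11, 7.73 and 7.62 to 7.03, 7.53 and 6.91 (interaction -5.21, SE 0.29, adjusted p = 3.59e-08). Neither cultivar's groups overlapped.

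Called jasmonate genes mostly had the larger response in Dagad deshi. Of 39 tested, 29 had a called interaction, 25 negative and 4 positive, where 24.9% of named genes were negative. In Dagad deshi 27 rose and 8 fell, in IR20 21 rose and 6 fell, and the median response was 1.04 and 0.53. IR20 controls were the higher for 21 of the 39, and at 6 h Dagad deshi was the higher for 16. Among all probe sets tested these shares were 17.2% and 11.6%.

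LOX9, a lipoxygenase, the class of enzyme that begins jasmonate synthesis, went from 6.29, 5.6 and 5.85 to a mean of 10.09 ± 0.09 (SD, n = 3) in Dagad deshi and from 7.58, 6.91 and 7.32 to 8.12, 8.15 and 7.95 in IR20. The groups of both cultivars were apart, and the rise in Dagad deshi was larger by 3.38 (SE 0.24, adjusted p = 2.92e-07). OPR10, of the oxophytodienoate reductase family, rose by 2.6 in Dagad deshi and changed by -0.02 in IR20. JAZ11, a repressor that jasmonate both destroys and induces, rose by 5.79 against 3.21, JAZ9 by 5.07 against 2.87 and JAZ5 by 3.28 against 0.73. Exceptions in the list, whose members were taken by gene name, were AOS4, with an interaction of 0.97, and TIFY2A, with 0.75. Whether TIFY2A acts in the jasmonate pathway was not tested. With array weights 14 of the jasmonate genes were called negative.

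Dehydrins and LEA proteins, which protect membranes and proteins in drying cells, rose in both cultivars. All 8 tested rose in each cultivar, with a median of 9.0 in Dagad deshi and 6.38 in IR20, and 5 had a negative interaction. RAB21, a dehydrin induced by abscisic acid, was at 6.10, 4.51 and 4.51 in Dagad deshi controls and 15.08, 14.99 and 15.01 at 6 h. In IR20 it was at 9.20, 7.97 and 9.89 in controls and 15.40, 15.15 and 15.32 at 6 h. The controls did not overlap between cultivars and the interaction was -3.71 (SE 0.59, adjusted p = 0.000388).

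LEA19, a group 3 LEA protein, showed the same order. It went from 5.56, 6.47 and 5.48 to 14.97, 15.03 and 15.05 in Dagad deshi, and from 10.26, 9.15 and 9.91 to 14.98, 14.93 and 14.93 in IR20 (interaction -4.01, SE 0.35, adjusted p = 2.22e-06). The drought levels of the cultivars differed by -0.07 and the controls by 3.94. All 4 dehydrin genes from RAB16D to RAB21 on chromosome 11 had a negative interaction, from -3.71 to -2.32, with higher IR20 controls. At 6 h the difference between cultivars was not called for any of the 4, although IR20 was the higher on every array for RAB16D, RAB16C and RAB21 (by 0.37, 0.18 and 0.27). The brightest probe set of each array lay at 15.78 to 16.15, so these genes were near the top of the scale, and the part of that limit was not tested. EM, Dhn1 and rab25 had interactions of -0.02, 0.10 and 0.53 that were not called.

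Genes of the steps before the dehydrins had smaller interactions. ABA1, which acts in abscisic acid synthesis, rose by 2.27 in Dagad deshi and 1.74 in IR20, and ABA8OX1, which breaks the hormone down, by 3.17 and 2.23. The receptor PYL11 rose by 1.21 and 0.56. These 3 of 5 abscisic acid genes had a called interaction. With array weights ABA1 and PYL11 lost it.

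Of 53 protein phosphatases 2C, 19 had a negative and 6 a positive interaction, where 24.9% and 20.7% of named genes did. OsPP2C35 rose by 2.58 in Dagad deshi and 1.00 in IR20, and OsPP2C61 by 1.55 in Dagad deshi only. OsPP2C08 went the other way and rose by 3.31 and 4.25. With array weights 9 were called negative and 10 in a fit of the 12 arrays alone. Among 10 SnRK2 kinases 5 were negative and 1 positive. SAPK2 rose by 3.13 and 1.31 and SAPK3 by 3.43 and 1.73, while SAPK5 fell by 1.58 and 0.76.

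Calls among transcription factor families went in both directions, several of them near the shares among named genes. Homeodomain leucine zipper factors had 8 positive and 4 negative calls of 26, MADS-box factors 7 and 4 of 21, and CCCH zinc finger proteins 9 and 7 of 47. These counts were not stable: homeodomain leucine zipper factors had 3 and 2 with array weights, and MADS-box factors 3 and 4 with median centring. The bZIP factors had 3 positive and 5 negative of 22, and the MYB as well as the DREB and ERF factors 1 and 3 of 10. Of 8 NAC factors 6 had a negative interaction, with medians of 2.67 and 1.28. NAC45 was at 5.68, 5.77 and 5.67 in Dagad deshi controls and 9.17, 9.13 and 8.82 at 6 h, against 6.77, 5.90 and 6.91 in IR20 controls and 7.51, 7.28 and 7.13 at 6 h. Neither cultivar's groups overlapped, and the interaction was -2.55 (SE 0.30, adjusted p = 2.61e-05). Of 20 heat shock factors 11 were negative and 1 positive, against 24.9% and 20.7% of named genes. In Dagad deshi 17 rose and in IR20 14, where 24.7% and 20.4% of all probe sets tested did. HSFA9 rose by 3.02 and 1.19, HSFA2D by 2.08 in Dagad deshi against a change of 0.31 in IR20, and HSF01 by 4.06 and 4.67. With array weights 5 were called negative.

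All 6 WRKY factors rose in both cultivars and 3 rose more in Dagad deshi. WRKY24 rose by 3.36 and 1.71 and WRKY71 by 4.41 and 3.15. DREB1A, DREB2B and DREB2A, which bind the dehydration-responsive element, had interactions of -1.66, -1.64 and -0.79. None of the 3 was called with array weights. Among 26 heat shock proteins, chaperones, the calls were mixed, 8 negative and 4 positive.

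Water channels split within the family. PIP2-7, a plasma membrane aquaporin, was between 14.35 and 14.52 on the 6 control arrays, and at 6 h it was at 8.26, 8.80 and 8.95 in Dagad deshi and 11.67, 11.70 and 11.68 in IR20. It fell in both cultivars, by 5.75 and 2.75, and the controls differed by 0.01. PIP2-5 went in opposite directions, from 10.12, 9.79 and 9.94 to 12.42, 12.35 and 11.92 in Dagad deshi and from 9.21, 9.39 and 9.20 to 8.94, 8.84 and 8.60 in IR20 (interaction -2.76, SE 0.18, adjusted p = 1.12e-07). PIP2-4 rose by 2.95 in Dagad deshi only. Of 24 aquaporins 4 had a positive and 6 a negative interaction, close to the shares among named genes.

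Single sugar genes differed in either direction. SUS3, a sucrose synthase, fell from 5.79, 5.99 and 5.68 to 5.27, 5.14 and 4.88 in Dagad deshi and rose from 4.68, 4.71 and 4.77 to 7.25, 6.90 and 6.91 in IR20. None of the groups overlapped within a cultivar (interaction 3.02, SE 0.17, adjusted p = 4.8e-08). CIN7, a cell wall invertase, rose in IR20 only, by 1.76. CIN1, an invertase too, rose by 1.41 in Dagad deshi, and its level in IR20 fell by 0.91. The exporter SWEET1B likewise rose by 1.59 and fell by 0.61. Of 32 sugar genes 8 were positive and 6 negative, near the shares of 20.7% and 24.9% among named genes.

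Some uptake genes that act mainly in roots were among the named responses higher in IR20. The phosphate transporters PHT1-4 (below) and PHT1-1 went the other way, with a lower response in IR20 than in Dagad deshi. NRT2.2, a high-affinity nitrate transporter, was at 4.53, 4.52 and 4.52 in Dagad deshi controls and 5.6, 5.72 and 6.16 at 6 h, against 4.56, 4.70 and 4.82 in IR20 controls and 9.02, 8.99 and 8.97 at 6 h. All drought arrays were above all controls and IR20 rose further (interaction 2.99, SE 0.17, adjusted p = 3.22e-08). Its probe set can bind near-identical transcripts, so the copy measured is uncertain. NRT2.3 rose by 1.27 in IR20 against 0.07 in Dagad deshi.

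YSL15, the transporter of iron bound to phytosiderophore, fell from 6.70, 6.06 and 6.27 to 5.58, 5.64 and 5.64 in Dagad deshi and rose from 6.73, 6.15 and 6.70 to 8.18, 8.40 and 8.21 in IR20. The groups were apart in both (interaction 2.46, SE 0.28, adjusted p = 1.95e-05). ZIP1 (LOC4326394), a zinc transporter family member, fell by 0.89 and rose by 1.78, with IR20 controls at 7.44, 5.84 and 7.55. ZIP3 (LOC4336971) fell in both, by 1.33 in Dagad deshi and 3.07 in IR20. MT4A, a metallothionein, rose by 6.08 and 2.09. Over the 51 iron and metal genes 15 were positive and 11 negative, near the shares of 20.7% and 24.9% among named genes.

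Genes of the root barrier and the cell wall differed too. OsCASP1, which builds the Casparian strip of the endodermis, went from 7.53, 8.12 and 8.27 to 5.09, 5.13 and 5.24 in Dagad deshi and from 7.94, 8.29 and 8.05 to 8.51, 8.80 and 8.64 in IR20. It fell in one cultivar and rose in the other without overlap (interaction 3.38, SE 0.23, adjusted p = 1.82e-07). PRX74, a secretory peroxidase, fell from 12.30, 12.03 and 12.08 to 6.72, 6.90 and 6.75 in Dagad deshi. In IR20 it was at 12.06, 11.90 and 12.16 in controls and 11.71, 11.69 and 11.65 at 6 h, a fall of 0.36 against 5.34 (interaction 4.99, SE 0.12, adjusted p = 8.85e-12). PRX112, another peroxidase, fell by 2.44 in Dagad deshi only. Lsi2, a silicon exporter of the root, changed by -0.52 in Dagad deshi and rose by 1.28 in IR20, a difference that was not called with array weights.

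The root marker list shares nitrate transporter and silicon genes with those above, so it is not independent of them. Its median response was -0.03 in Dagad deshi and 0.02 in IR20, with a median interaction of 0.05. Of 14 root genes tested 7 had a positive and 3 a negative interaction, and 4 to 6 of them were near the floor in each group. Their summed intensity was 5610 to 6350 in Dagad deshi controls and 5970 to 6790 at 6 h, and 9420 to 13000 in IR20 controls and 14200 to 17400 at 6 h. The part of the root share of the RNA in these results was not tested.

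Some responses had one cultivar at the floor or no gene name. LOC4351887 was between 4.43 and 4.46 on every control and Dagad deshi drought array and at 10.24, 10.39 and 10.19 in IR20 at 6 h (interaction 5.85, SE 0.10, adjusted p = 1.7e-13). LOC4325841 fell from 11.83, 11.60 and 11.54 to 7.10, 6.87 and 8.06 in Dagad deshi and rose from 9.41, 7.12 and 9.28 to 11.27, 11.44 and 11.36 in IR20 (interaction 7.07, SE 0.64, adjusted p = 2.99e-06). Its groups did not overlap in either cultivar, and these were the 2 largest positive interactions. BGLU16, a beta-glucosidase, rose by 2.72 and 4.91. MADS26, a MADS-box factor, rose by 1.55 in IR20 only, from a control level 2.43 lower than in Dagad deshi.

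Many genes of cell division fell in both cultivars, and the calls differed between lists. All 24 called interactions among 34 kinesins, motor proteins of the spindle and the microtubule array, were positive, where 20.7% of named genes were, with median responses of -1.46 in Dagad deshi and -0.82 in IR20. KIN12C was between 10.84 and 10.99 in Dagad deshi controls and at 7.32, 7.47 and 7.38 at 6 h, against 10.41, 10.80 and 10.63 in IR20 controls and 8.59, 8.47 and 8.28 at 6 h. Both falls were clear of the controls, and they differed by 1.33 (SE 0.14, adjusted p = 1.29e-05).

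Tubulins gave 6 positive calls of 11. TUB2 fell from 13.91, 13.98 and 13.88 to 10.59, 10.68 and 10.70 in Dagad deshi and from 13.62, 13.61 and 13.55 to 11.83, 11.66 and 11.73 in IR20 (interaction 1.41, SE 0.07, adjusted p = 1.82e-08). Of 53 cell cycle and replication genes 22 were positive and 6 negative, with 38 and 37 falling in the cultivars. CYCB2-2, a mitotic cyclin, fell by 3.69 and 1.98. FEN1A, a flap endonuclease of replication, fell more in IR20, by 1.60 against 0.45, a difference that was not called with array weights. The 5 histone H2B genes had no called interaction, with median falls of 1.08 and 1.13, and among 25 ribosomal proteins 3 were called. With array weights the positive calls numbered 11 for kinesins and 8 for the cell cycle, and without the first Dagad deshi control the negative cell cycle calls numbered 11 and the ribosomal ones 7.

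Of 27 expansins and xyloglucan enzymes, which loosen the growing wall, 8 were positive and 2 negative, and of 29 cellulose synthases and related genes 11 and 3, against 20.7% and 24.9% of named genes. EXP1, an expansin, fell by 2.50 in Dagad deshi and 0.63 in IR20, and CESA7 and CESA4, cellulose synthases of the secondary wall, by 1.97 and 1.87 in Dagad deshi and 0.83 and 0.87 in IR20. With array weights 2 of the expansin and xyloglucan genes and 6 of the cellulose synthase list were called positive.

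Called photosynthesis genes mostly had a positive interaction. Of 13 photosystem and carbon fixation genes, 9 had a positive interaction and 1 a negative one. RCAA1, Rubisco activase, which keeps the carbon-fixing enzyme active, was at 14.15, 14.51 and 14.46 in Dagad deshi controls and 12.28, 12.45 and 12.54 at 6 h. In IR20 it was at 14.07, 14.30 and 14.07 in controls and 13.83, 13.62 and 13.78 at 6 h, so that its fall was larger in Dagad deshi by 1.54 (SE 0.15, adjusted p = 4.14e-06). LHCP, a light-harvesting protein, fell by 1.18 and 0.41. Among 13 chlorophyll genes 6 were positive. CHLP, a reductase of chlorophyll synthesis, fell by 1.58 and 0.65, and NYC1, a chlorophyll b reductase of breakdown, rose by 4.05 and 2.01.

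The green shoot markers, which share members with that list, summed to 103000 to 116000 in Dagad deshi controls and 57000 to 64100 at 6 h, and to 113000 to 117000 in IR20 controls and 84400 to 93400 at 6 h. Of the 8, 6 had a positive interaction and 1 a negative one. With array weights 5 photosystem genes were called positive.

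**Figure D4:**
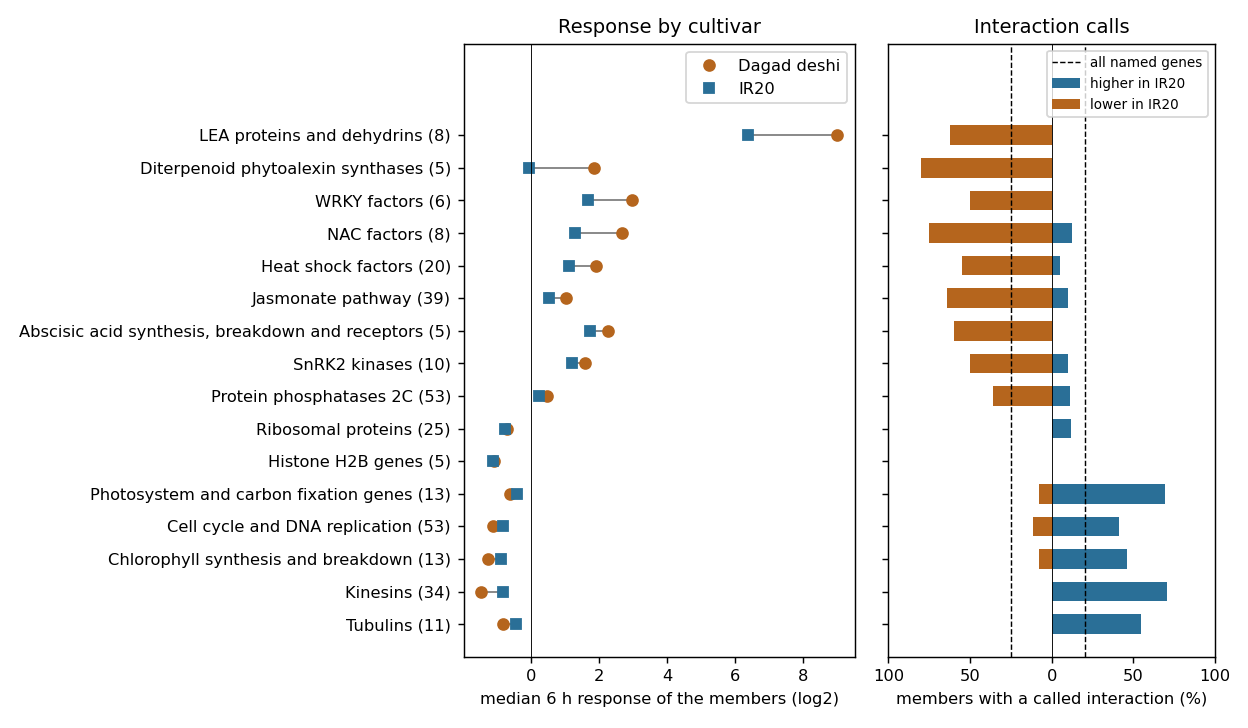
The left panel gives the median 6 h response (log2) of the tested members of each gene list (number in brackets) in Dagad deshi and IR20, and the right panel the percent of members with a called interaction, higher in IR20 to the right and lower to the left, with dashed lines for the 2381 named genes (20.7% and 24.9%). Stress and defence lists lie apart with Dagad deshi higher, least so protein phosphatases 2C (medians 0.48 and 0.23). Kinesins, tubulins, chlorophyll genes (-1.27 and -0.90) and cell cycle genes lie apart with Dagad deshi lower.

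Fermentation, phosphate and auxin genes held some large single differences. PDC1, pyruvate decarboxylase of alcohol fermentation, rose by 3.77 in Dagad deshi and 1.41 in IR20 (interaction -2.36, adjusted p = 1.28e-06), and NSHB2, a plant hemoglobin, by 3.16 and 1.05. Of the 6 fermentation enzymes and hemoglobins 3 were negative and none positive. PHT1-4, a phosphate transporter, rose by 2.74 and 0.72, and of 19 phosphate genes 4 were called in each direction. GH3.2, of the family that conjugates hormones to amino acids, rose by 4.32 and 1.42, and IAA9, an auxin response repressor, by 5.47 and 3.44. SAUR39, of a family of small auxin-induced proteins, rose by 0.77 in Dagad deshi, while that of IR20 fell by 1.59. Of 57 auxin genes 14 were positive and 10 negative, near the shares among named genes.

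An interaction arises from a difference at the start, at the end, or both. A probe set chosen for a negative interaction is by construction more likely to have higher IR20 controls, so these counts are a description. Of the 2271 probe sets at least 1 lower in IR20, 991 differed between the cultivars in the controls only, 495 at 6 h only and 753 in both, and in 1674 the IR20 controls were significantly higher. RAB21, LEA19 and PBZ1 belong to the first kind, and GER3 to the second. Of the 1243 at least 1 higher in IR20, 312 differed in the controls only, 387 at 6 h only and 532 in both. PRX74, PIP2-7 and OsCASP1 had no called difference in the controls and were apart at 6 h. Across all probe sets the cultivars differed for 21263 (53.1%) in the controls, where IR20 was higher for 17.2% and lower for 35.9%, and for 8872 (22.2%) at 6 h, with 10.5% higher and 11.6% lower.

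**Figure D5:**
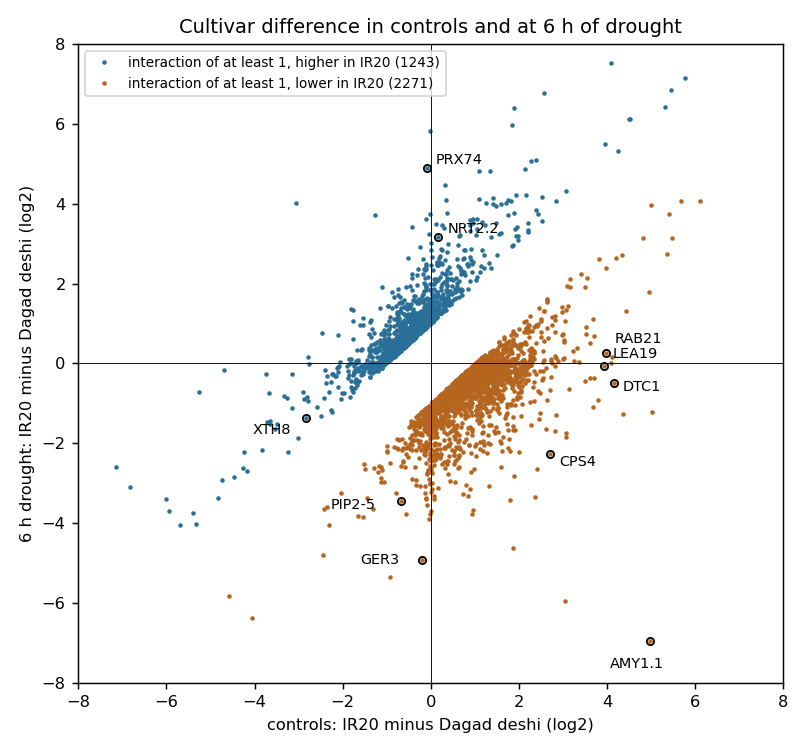
Points are the 3514 probe sets with a called interaction of at least 1, with the difference between cultivars (IR20 minus Dagad deshi, log2) in controls on the horizontal axis and at 6 h of drought on the vertical axis. Many of the 2271 lower in IR20 lie to the right near a 6 h difference of 0, as RAB21 and LEA19 do, whereas GER3 and PRX74 lie near 0 on the horizontal axis.

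The same contrast after 3 h, which shares the control arrays and is therefore not independent, was called for 19286 probe sets (48.2%), with 31.4% higher and 16.7% lower in IR20. The 3 h and 6 h interactions were -5.85 and -4.99 for CPS4, -4.06 and -3.71 for RAB21, -4.89 and -4.72 for GER3 and 4.06 and 4.99 for PRX74. NRT2.2 had -0.42, which was not called, and 2.99. The 3 h values of AMY1.1 (-0.10) and EP3A (0.15), against -11.91 and -6.50 at 6 h, rested on the first Dagad deshi control. Without it, an alternative chosen after seeing the data, they were -3.32 (adjusted p = 0.0128, limma) and -1.35 (adjusted p = 0.0548). LOC4351887 had 2.57 and 5.85 and SUS3 1.12 and 3.02.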

How the data were processed

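RNA had been labelled by a 3' method, and for each of the 18 arrays the authors deposited a linear intensity of every probe set. Their notes name GCOS, and its version, the summarization and the normalization are not given in the sources used here. The number of arrays limits the precision. Values were taken as log2(intensity + 16) without further scaling. Control and reporter probe sets (187) were left out, and probe sets above the 30th percentile of mean log2 value were tested. Group means of all 6 groups were fitted in R 4.3.3 using limma 3.58.1, whose empirical Bayes step allowed for a mean-variance trend, and the code was tested on simulated data. An adjusted p (Benjamini-Hochberg) under 0.05 was called. Fold changes are on the log2(intensity + 16) scale, which understates the change of low genes.

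Probe sets were named through RefSeq assembly ASM3414082v1 of japonica rice: 22436 had 1 gene, 95 several and 34850 none in the table, and 3193 carried 1 of 2458 named genes. Each gene was read from 1 probe set, the brightest, avoiding those marked as binding several transcripts where possible. Named were the probe sets with the largest interactions in each response class, up to 3 called members of each of 51 lists, and the 2 largest per direction. Others (9 genes and the chromosome stretches) were chosen after their values were seen, and further members of the lists illustrate counts. The comparison, members and lists were chosen with earlier results of these data known. Alternatives were other scalings, pseudocounts, filters, variance priors, array weights, a replicate block, the 3'/5' index, fewer probe sets and leaving out each array. No columns were identical, and none belonged to another series.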

Additional observations from a re-analysis of the deposited data

Results flagged for a closer look

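Differences between the cultivars under the same contrast were tested by the interaction term of the limma fit, and 17228 probe sets passed. The genes below were chosen from these for the size of their interaction within each kind of response, so their values are a description.

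Among opposite responses, IR20 rose while Dagad deshi fell for LOC4325841 (7.07), OsCASP1 (3.38), SUS3 (3.02), ZIP1 of LOC4326394 (2.66) and YSL15 (2.46). The reverse held for AMY1.1 (-11.91), LOC4330830 (-9.0), EP3A (-6.50), LAC19 (-5.21) and CYP71Z6 (-4.70). The first 3 of these rest on Dagad deshi controls of which the first array was as high as the drought arrays.

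Responses in IR20 only were rises of LOC4351887 (5.85), MEAL1 (2.02), CIN7 (1.67) and MADS26 (1.57), and falls of OsITPK3 (-1.39), GSTZ5 (-1.34) and BURP16 (-1.34). Responses in Dagad deshi only were rises of CPS4 (-4.99), CYP701A9 (-4.72) and GER3 (-4.72), and falls of PRX112 (2.56), ILI6 (1.81) and XTH8 (1.46). The call of XTH8 was lost with array weights.

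A stronger response in IR20 was found for the rises of NRT2.2 (2.99) and BGLU16 (2.19) and the falls of ZIP3 of LOC4336971 (-1.74) and PURA2 (-1.34). In Dagad deshi it was found for the rises of CYP99A3 (-4.91) and LEA19 (-4.01) and the falls of PRX74 (4.99) and GLU15 (3.26). Values are interactions in log2 units.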

How the results depend on the processing

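The 6 h interaction of none of the 170 named genes changed direction under any alternative in which it was tested. With a filter at the 60th percentile 167 were tested, and 159 without probe sets marked as binding several transcripts. These genes were named for their interactions in the same arrays, so a change of direction was unlikely beforehand. The counts of the interaction moved more. Differences of at least 1 log2 unit numbered 3514, with 1243 higher and 2271 lower in IR20, and a pseudocount of 64 left 736 and 1506. Under the other alternatives they ran from 1012 to 1735 and from 1699 to 2874, with more of them lower in IR20 each time. All called interactions numbered 30303 without a filter, 9280 with a filter at the 60th percentile, 10194 in a fit of the 12 arrays and 6574 with array weights. Those higher in IR20 numbered 7409 with quantile normalization, 5195 with median centring, 24198 without a filter, 4143 at the 60th percentile, 7465 with a constant prior, 5995 with 12 arrays and 4002 with array weights, which also left 2572 lower in IR20. The share of calls higher in IR20 was 66.1% as deposited, 60.6% after quantile normalization and 40.6% after median centring.

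Responses in Dagad deshi only numbered 4333 (quantile), 4896 (median), 18486 (no filter), 1938 (60th percentile), 5022 (constant prior), 4351 (12 arrays), 1172 (array weights) and 2202 (3'/5' index as a term). Those in IR20 only numbered 792 (60th percentile), 954 (12 arrays), 4096 (index) and 2467 without the 2 controls of highest index. Opposite responses numbered 323 (12 arrays), 189 (index) and 2743 (without those controls). Stronger responses in IR20 numbered 407 (12 arrays), 113 (array weights) and 483 (index), and in Dagad deshi 2749 with array weights. The 6 h response of Dagad deshi was called for 18435 (60th percentile), 14898 (array weights) and 15881 (index). The cause of these moves was not tested, beyond fewer probe sets or arrays where the setting itself makes them so.

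Leaving out 1 array gave 13593 to 19854 interactions, 8429 to 13582 higher and 4861 to 6426 lower in IR20, and 1132 to 1535 and 1909 to 2687 of at least 1. Opposite responses ran from 380 (without IR20 control 1) to 2006 (without Dagad deshi control 1), those in Dagad deshi only from 6106 to 9803, in IR20 only from 1145 to 1974, stronger in Dagad deshi from 4596 to 6099 and in IR20 from 537 to 867. The responses numbered 25046 to 29175 in Dagad deshi and 16804 to 21618 in IR20.

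Same-numbered replicates of different groups showed no shared deviation (mean r -0.02 over 18 pairs, from -0.55 to 0.34). For different numbers it was 0.03 over 36 pairs, from -0.58 to 0.70. Pairing by number was not detected, and so wide a spread cannot exclude it. With a replicate block 16535 interactions were called, 10831 higher and 5704 lower, and 1240 and 2263 of at least 1. Among named genes, 26 lost their call with array weights, 8 with 12 arrays and 4 with the index. CATA, a catalase, moved from -2.02 to -1.15 without Dagad deshi control 1. Signal near the floor limits what low probe sets can show.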
